A study of Mus musculus with 9 samples.

Results

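Lung tissue of mice given both silica and atractylenolide III (ATL-III) was compared with lung tissue of mice given saline, by poly(A) RNA sequencing. All animals were male C57BL/6J mice aged 6 to 8 weeks, in groups of 20. Lungs were taken 28 days after an instillation into the trachea. Control mice received saline. Silica + ATL-III mice received 5 mg of silica in saline and, into the abdomen, ATL-III at 30 mg/kg per day. A Silica group received the dust alone, and its values are given only where they show how the levels with ATL-III relate to those with silica. The comparison used 6 of the 9 libraries in the series, 3 in each group. Genes entered it when their FPKM (reads scaled to the length of a gene and the depth of its library) was at least 1 in at least 3 of the 9 libraries, which held for 15459 of 55359 genes in the table.

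The labels name no group that received ATL-III or an abdominal injection without silica, so in this comparison silica, ATL-III and the injection cannot be told apart. The labels do not say that a library came from a single mouse. The p-values therefore reflect how far libraries of the same group differ, part of which may be technical. This spread was estimated over all 9 libraries, those of Silica included. In bulk tissue, fewer cells of a type and less RNA per cell cannot be told apart either.

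Inhaled silica crystals are taken up by macrophages of the air spaces, damage their lysosomes and activate the inflammasome, a complex that releases interleukin 1. Macrophages, neutrophils and lymphocytes collect, nodules form, and fibroblasts lay down collagen, which is the fibrosis of silicosis. ATL-III is a sesquiterpene lactone from the rhizome of Atractylodes plants. The study's title names autophagy (the route by which cells deliver their own parts to lysosomes), the epidermal growth factor receptor (EGFR) and the kinase mTOR, a brake on autophagy, and these genes were examined along with those of lung cell types and of immune, matrix and metabolic pathways.

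The samples carried the marks of lung. Sftpc, the surfactant protein C gene of alveolar type 2 cells, stood at 27488, 19802 and 23043 FPKM in Control 1, 2 and 3 and at 27147, 22837 and 20530.5 in Silica + ATL-III 1, 2 and 3. All sets of values below follow this order of libraries. Scgb1a1, a secretory protein of airway club cells, stood at 78743, 72146 and 71946 and at 82394, 94851 and 87854 FPKM, and neither gene was called. Depth was even, between 16047175 and 17792481 counts per library. The Silica + ATL-III libraries stood apart on the first principal component, which held 39.4% of the variance. Control 2 had more transcripts of neutrophil genes than the other Control libraries, and Control 3 more of fat genes and of skeletal actin. Those values are given beside the results they touch.

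Changes are log2 fold changes ± SE, Silica + ATL-III over Control, from a quasi-likelihood test of the raw counts with edgeR, fitted to all 9 libraries. A gene was called, and is said to have risen or fallen, at a Benjamini-Hochberg adjusted p under 0.05. Unless another value is given, a gene named as having risen or fallen kept its call whichever of the 6 libraries was left out. For comparison with statements on overlap, the FPKM values of the groups did not overlap for 42.6% of all genes tested. Counts over a list of genes are calls with all libraries, and a count that moved by over 1.5 times without a library is given with that library. Members that would fail the expression filter without the libraries of 1 of the groups compared are said to have passed only through it. The filter favoured a high level of them in that group, so their differences were partly selected for. Where no number of them is given, a list held at most 1 through either group. On the TPM scale each of the 51 lists had as many or fewer genes called higher and as many or more called lower, and lists whose balance turned are given with those counts. Against Silica, "higher" and "lower" refer to the same fit and threshold. Members of families with near-identical copies (stefins, Ly6, Ear, Ifitm, Serpina3, metallothionein, MHC and Oas genes) may share reads, and their values are uncertain to that extent.

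EdgeR called 2451 of 15459 genes (15.9%), 1413 of them higher (9.14%) and 1038 lower (6.71%) in Silica + ATL-III than in Control. The fitted difference was at least 2-fold for 627 of the genes that rose and 263 of those that fell. Of all calls, 1258 held whichever single library was left out. Without Control 1 there were 1590 calls and without Control 3 there were 1474. The direction of the balance rested on the scaling. Of the calls, 57.6% were higher with TMM factors, 34.3% with library totals alone, 47.4% with upper quartile factors, 35.2% with limma on the deposited FPKM and 12.7% after rescaling to TPM, which gives each library the same sum of length-scaled levels. The median log2 fold change of all genes was -0.01 under TMM, -0.13 with library totals and -0.31 on the TPM scale, and values on another scale are read against its own median.

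**Figure D1:**
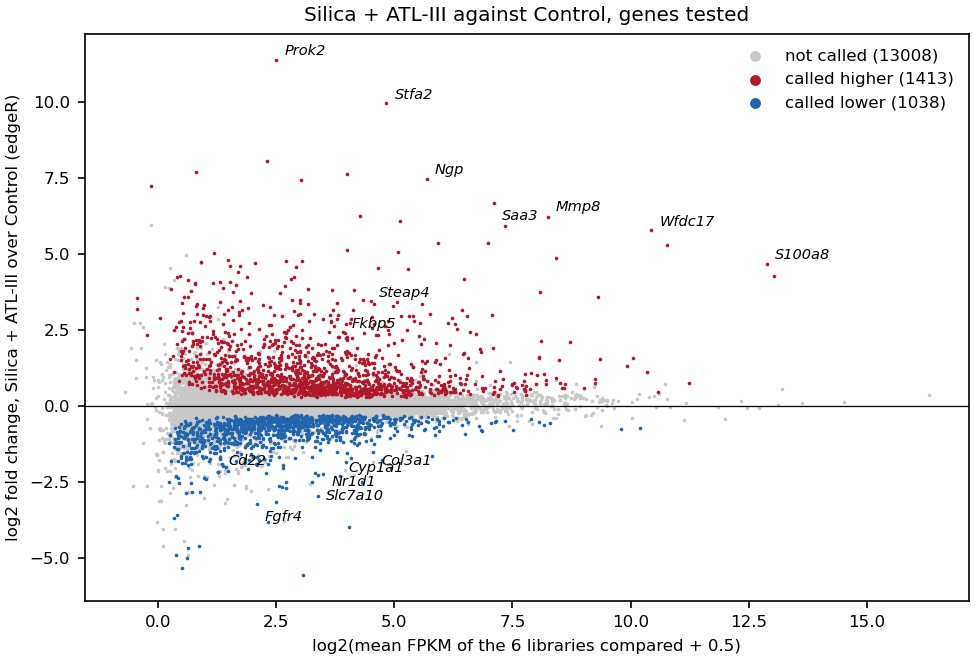
Each point is a gene, placed by its mean level in the 6 libraries compared (log2 of FPKM + 0.5, horizontal) and its log2 fold change, Silica + ATL-III over Control (edgeR, vertical). Red points are the 1413 genes called higher, blue points the 1038 called lower, and the highest increases include Prok2, Stfa2, Ngp and Mmp8.

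Members of 51 lists of cell type and pathway genes are described below by their calls. The plot of the percent called in each list places them against all genes tested.

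**Figure D2:**
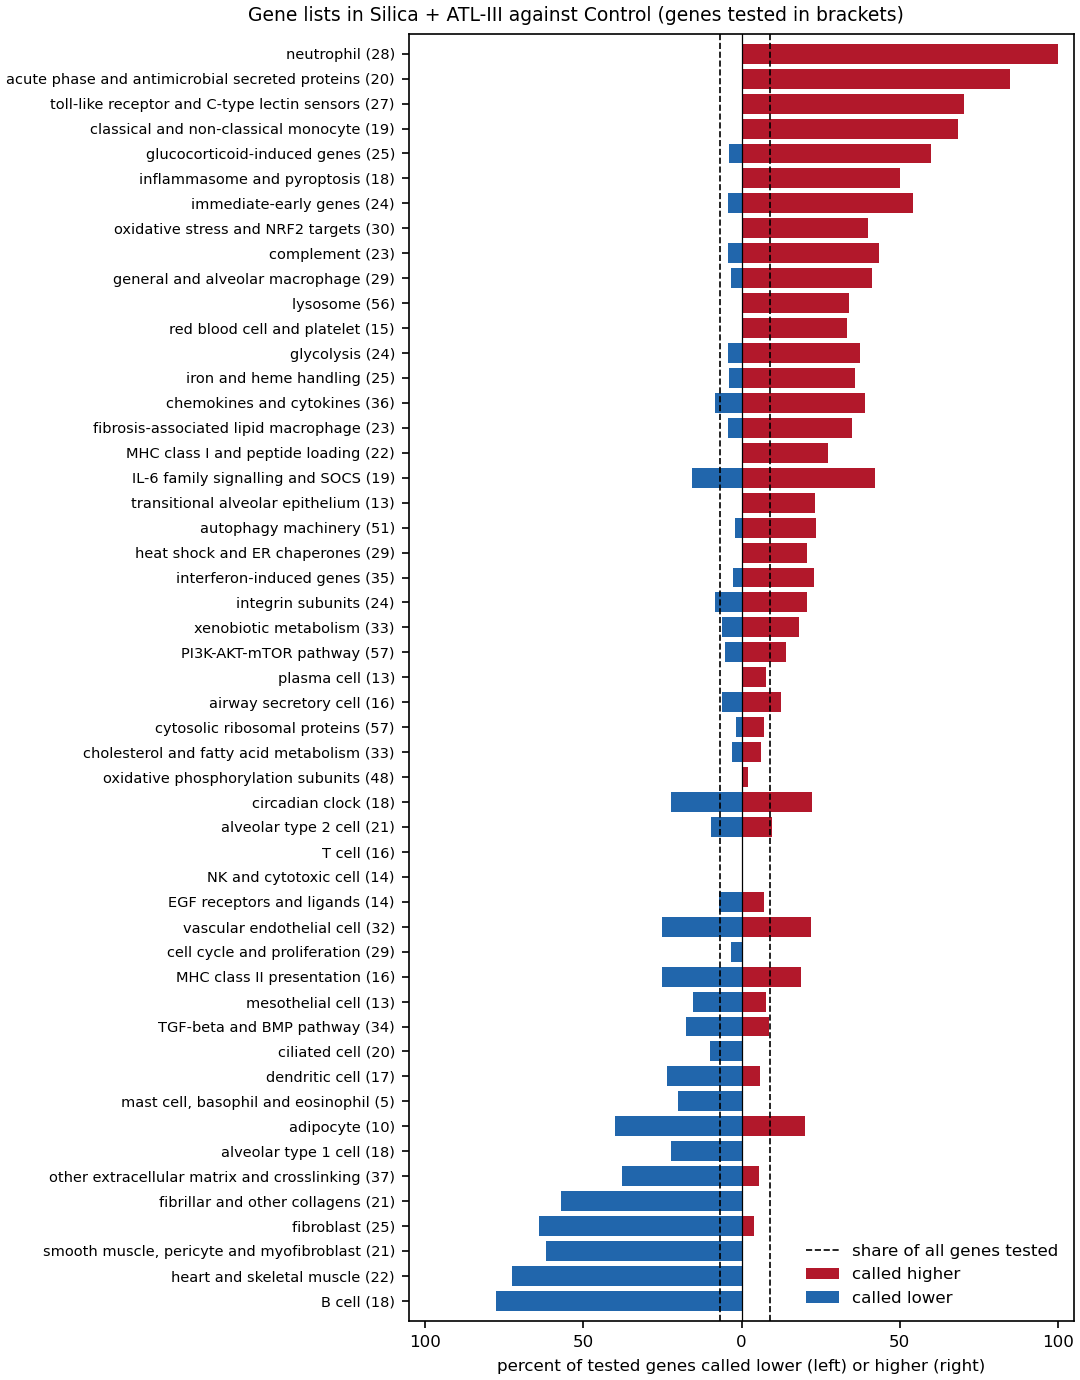
Percent of the tested genes of each of the 51 lists that edgeR called higher (right, red) or lower (left, blue) in Silica + ATL-III than in Control, with dashed lines at the shares of all genes tested (9.14% higher, 6.71% lower). The neutrophil list reaches 100% higher, and the B cell and muscle lists have the largest shares of lower genes.

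Many of the largest increases were genes of neutrophils, the short-lived white cells that engulf particles and release granule enzymes. Of the 32 listed neutrophil genes, 28 were tested and were called higher, against 9.14% of all genes tested. Of these, 3 passed the expression filter only through the Silica + ATL-III libraries, and the calls of Csf3r and Padi4 were lost without some libraries. The median log2 fold change was 3.58. Summed over the 28 genes, FPKM ranged from 1161 to 4741 in Control and from 32992 to 49726 in Silica + ATL-III. In the Silica group 8 of the 28 were higher than in Control, where 9.11% of all genes were higher and 7.81% lower, and the median was 0.65.

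Granule proteins led. Ngp, neutrophilic granule protein on chromosome 9, stood at 0.15, 0.61 and 1.06 FPKM in Control and at 102, 119.6 and 81.2 in Silica + ATL-III, a log2 fold change of 7.48 ± 0.61 (adjusted p = 1.8e-05). Mmp8, the neutrophil collagenase, on the same chromosome, stood at 4.12, 17.6 and 4.58 and at 542, 763 and 488 FPKM (6.22 ± 0.60, adjusted p = 5.6e-05). Control 2 had the highest Mmp8 value of its group, and every Silica + ATL-III library lay above it. The antimicrobial proteins Ltf (lactoferrin, 1.70 ± 0.20) and Lcn2 (lipocalin 2, which sequesters bacterial iron carriers, 3.75 ± 0.29) also rose. So did Wfdc21 (4.87 ± 0.36), a small secreted protein expressed by neutrophils.

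Prok2, a secreted peptide made by neutrophils, had no count in the Control libraries and stood at 10.5, 10.3 and 9.95 FPKM in Silica + ATL-III. Against a floor of 3 counts over the Control group it was at least 318-fold higher. Il1r2, the decoy receptor for interleukin 1, stood at 1.66, 15.3 and 2.30 and at 279.5, 301 and 153 FPKM (5.37 ± 0.69, adjusted p = 0.00034), again with Control 2 above its group. The list's median is the same with Prok2 at that bound. Genes of the stefin family, inhibitors of cysteine proteases, were also among the 12 largest increases. Stfa2 had 1 count over the Control libraries and stood at 42.4, 48.1 and 77.1 FPKM in Silica + ATL-III, and Stfa3 had 3 counts and stood at 26.7, 26.5 and 39.7 FPKM. The related Cstdc5 (log2 fold change 6.26), the surface marker Ly6g (6.08) and the membrane protein Ifitm6 (5.91) rose too, with the doubt about shared reads given above. Prok2, Stfa2, Stfa3 and Cstdc5 passed the expression filter only through the Silica + ATL-III libraries, so their differences were partly selected for.

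The calprotectin gene S100a8, chosen for display after its values were seen, had one of the highest levels of the list. It stood at 209, 1458 and 184 FPKM in Control and at 11884, 11384 and 20401 in Silica + ATL-III (4.69 ± 0.87). Control 2 again lay above the other Control libraries, and no library of the groups overlapped. Genes of the primary granules, which are transcribed in immature neutrophils of the bone marrow, were below the expression filter and were not tested. Elane, neutrophil elastase, stood at 0.06, 0.13 and 0 and at 0.19, 0.49 and 0.31 FPKM, and Mpo, myeloperoxidase, at 0, 0 and 0.02 and at 0.16, 0.16 and 0.27. Prtn3, proteinase 3, stood at 0.32, 0.29 and 0.14 and at 0.43, 1.03 and 2.59 FPKM, and Ctsg, cathepsin G, was at 0 counts in the Control libraries and at 0.89, 0.58 and 2.52 FPKM with ATL-III. All 4, named after their values were seen, had their highest values with ATL-III. Compared with Silica, 23 of the 28 tested neutrophil genes were higher and none was lower (11.2% and 10% of all genes). Mmp8 in the Silica libraries stood at 7.42, 15.3 and 5.05 FPKM.

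Promoters are shown for 6 of these genes, because the genes rose together. They are the 250 bases before the annotated start, 5′ to 3′ on the gene's strand, from RefSeq on GRCm38.p6. Capitals mark matches to TTGCNNAA, a form of the site bound by C/EBP factors, read on both strands, so that a match on the opposite strand appears as TTNNGCAA. The motif was kept after several motifs had been looked at in promoters of these genes, and Camp and S100a8 were chosen to show promoters without a match.
Ngp, chr9:110419558-110419807, plus strand: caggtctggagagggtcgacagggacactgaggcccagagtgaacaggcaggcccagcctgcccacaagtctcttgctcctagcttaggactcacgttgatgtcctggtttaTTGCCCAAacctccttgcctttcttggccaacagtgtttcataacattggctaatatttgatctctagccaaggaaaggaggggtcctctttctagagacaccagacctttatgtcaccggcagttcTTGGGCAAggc
Ltf, chr9:111019042-111019291, plus strand: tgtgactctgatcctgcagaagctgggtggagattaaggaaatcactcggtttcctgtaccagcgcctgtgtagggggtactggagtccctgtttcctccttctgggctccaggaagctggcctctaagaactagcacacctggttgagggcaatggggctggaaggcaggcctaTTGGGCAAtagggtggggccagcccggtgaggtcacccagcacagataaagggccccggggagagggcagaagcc
Lcn2, chr2:32387740-32387989, minus strand: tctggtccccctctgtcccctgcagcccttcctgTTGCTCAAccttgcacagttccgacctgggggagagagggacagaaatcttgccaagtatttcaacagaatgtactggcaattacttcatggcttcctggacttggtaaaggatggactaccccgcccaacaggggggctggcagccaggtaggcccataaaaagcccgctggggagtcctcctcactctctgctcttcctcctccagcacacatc
Mmp8, chr9:7558179-7558428, plus strand: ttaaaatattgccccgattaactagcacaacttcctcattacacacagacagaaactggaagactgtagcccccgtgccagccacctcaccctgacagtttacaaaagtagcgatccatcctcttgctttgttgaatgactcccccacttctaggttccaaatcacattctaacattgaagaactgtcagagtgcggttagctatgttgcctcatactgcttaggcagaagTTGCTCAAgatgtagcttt
Camp, chr9:109849457-109849706, minus strand: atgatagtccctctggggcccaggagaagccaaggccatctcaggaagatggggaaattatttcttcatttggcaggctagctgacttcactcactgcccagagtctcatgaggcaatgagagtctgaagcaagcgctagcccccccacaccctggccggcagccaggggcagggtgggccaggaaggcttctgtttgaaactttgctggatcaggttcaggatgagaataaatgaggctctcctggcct
S100a8, chr3:90668821-90669070, plus strand: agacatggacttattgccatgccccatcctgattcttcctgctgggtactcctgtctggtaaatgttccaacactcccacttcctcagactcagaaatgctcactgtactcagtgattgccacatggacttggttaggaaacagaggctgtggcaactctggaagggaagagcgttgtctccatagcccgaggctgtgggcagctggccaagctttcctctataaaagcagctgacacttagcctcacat

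Ngp carries 2 matches, and Ltf, Lcn2 and Mmp8 carry 1 each. Of the 28 tested neutrophil genes 25 had a promoter in the RefSeq table, and 7 of these had a match at 1 or more of their starts. Over all 32851 promoters in the table, 9.56% held a match. That share is per promoter, while the 7 of 25 are genes scored over all their starts, so the figures are unlike measures. The motif was also chosen on promoters of these genes, and no enrichment was measured. A match describes letters in the window and was not tested as a binding site. Camp, the cathelicidin antimicrobial peptide gene, has no match in the window. Its level stood at 1.61, 0.90 and 4.80 FPKM in Control and at 35.6, 29.8 and 30.4 in Silica + ATL-III (3.82 ± 0.43).

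Most monocyte genes rose as well. Of 19 tested genes of classical and non-classical monocytes, 13 rose and none fell, with a median of 1.69. Ly6c2, a surface marker of inflammatory monocytes, stood at 6.4, 7.94 and 6.49 and at 30.0, 27.5 and 56.9 FPKM (2.58 ± 0.27, adjusted p = 8.2e-05). F13a1, coagulation factor XIII A, which monocytes and macrophages make, stood at 4.89, 5.77 and 6.33 and at 18.4, 26.0 and 29.8 FPKM (2.25 ± 0.21). Every Silica + ATL-III library lay above every Control library for both genes. Vcan, the large proteoglycan versican, which monocytes also express, rose by 1.89 ± 0.23. Pglyrp1, a secreted protein that binds peptidoglycan and is also on the antimicrobial list below, rose by 2.87 ± 0.23. In the Silica libraries F13a1 stood at 4.55, 6.37 and 3.69 FPKM, below every Silica + ATL-III library (Silica + ATL-III over Silica 2.37 ± 0.21).

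Fewer of the macrophage genes were called. Of 29 general and alveolar macrophage genes, 12 rose and 1 fell, with a median of 0.49. Without Control 2 the rising genes numbered 7, and none fell without Control 1 or Silica + ATL-III 1. Marco, a scavenger receptor that binds particles, stood at 5.66, 2.23 and 7.12 and at 24.9, 18.1 and 23.4 FPKM (2.26 ± 0.32). Cd68, a glycoprotein of macrophage lysosomes, rose by 1.41 ± 0.25 and the chitinase-like Chil3, which the neutrophil list also holds, by 1.57 ± 0.26. Lyve1, a hyaluronan receptor of interstitial macrophages and lymphatic vessels, stood at 86.0, 74.1 and 82.5 and at 189, 160.3 and 95 FPKM (0.99 ± 0.19), with Silica + ATL-III 3 lowest of its group. In Silica the Lyve1 values were 51.1, 57.4 and 53.6 FPKM.

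A separate list held genes of lipid-laden macrophages that collect in fibrotic lung. Of 23 tested, 8 were higher and 1 lower than Control (0 lower without Silica + ATL-III 1 or Silica + ATL-III 2), and 17 were lower than Silica with none higher. Against Control the median was 0.79 with ATL-III and 1.76 without it. Mmp12, the macrophage elastase, stood at 1.03, 1.25 and 1.28 FPKM in Control, 14.2, 6.17 and 15.9 in Silica + ATL-III and 282, 63.7 and 178 in Silica. Its log2 fold change over Control was 3.48 ± 0.51, and over Silica it was -3.85 ± 0.50 (adjusted p = 0.00047). For Mmp12 the groups did not overlap, and the Silica + ATL-III libraries lay in the middle. Ctsk, the collagen-degrading cathepsin K, stood at 20.3, 18.4 and 16.9, at 92.8, 62.7 and 83.2 and at 459, 203 and 322 FPKM in the same order of groups (2.22 ± 0.27 over Control, -2.04 ± 0.26 over Silica). Gpnmb, a glycoprotein of foamy macrophages, had the same order, at 1.57, 1.03 and 1.59, 17.3, 11.6 and 11.8 and 100.2, 24.9 and 63.8 FPKM. Ear6, an eosinophil-type ribonuclease that macrophages can also express, had 4 counts over the Control libraries and stood at 12.1, 10.6 and 22.6 FPKM with ATL-III and at 31.7, 27.9 and 33.8 in Silica, with shared reads possible in its family. Trem2, a lipid-sensing receptor, rose over Control by 2.17 ± 0.40 and was lower than in Silica (-2.0 ± 0.34).

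Most genes of secreted defence proteins rose. Of 20 tested acute phase and antimicrobial genes, 17 rose and none fell, with a median of 2.84. The list shares Ngp, Camp, Ltf, Lcn2, Lrg1 and Pglyrp1 with the leucocyte lists above. Saa3, the serum amyloid A gene made locally in inflamed tissue, stood at 1.10, 1.00 and 6.54 and at 277, 185 and 352 FPKM (6.68 ± 0.67, adjusted p = 6.8e-05), and at 84.2, 45.0 and 46.1 in Silica. Serpina3m, a serine protease inhibitor, stood at 5.92, 3.15 and 4.27 and at 51.2, 45.3 and 29.6 FPKM (3.35 ± 0.26). In the Silica libraries Serpina3m stood at 5.58, 6.92 and 4.38, near the Control values, and the difference between the silica groups was called (Silica + ATL-III over Silica 2.92 ± 0.25, adjusted p = 7.4e-05). Wfdc17, a small secreted protein of activated myeloid cells, stood at 38.6, 72.7 and 48.5, at 2202, 1919 and 3987 and, in Silica, at 558, 498 and 324 FPKM (5.79 ± 0.37 over Control, 2.57 ± 0.32 over Silica).

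Many receptors that sense microbial and damage products rose. Of 27 tested toll-like receptor and C-type lectin genes, 19 rose and none fell (median 1.02). Tlr13, a sensor of bacterial ribosomal RNA, stood at 2.26, 6.02 and 2.58 and at 31.1, 30.4 and 28.6 FPKM (3.17 ± 0.30). Tlr7, an endosomal sensor of single-stranded RNA, rose by 1.62 ± 0.11, Tlr1 by 2.5 ± 0.27 and Tlr8 by 2.01 ± 0.22. Tlr7 reached the same range in Silica, 10.2, 9.46 and 9.87 FPKM against 11.1, 9.41 and 10.4 with ATL-III (difference 0.09 ± 0.11, adjusted p = 0.6). Of 18 inflammasome and pyroptosis genes 9 rose and none fell, but 4 rose without Control 1 and 5 without Control 3, and 2 of the 18 passed the expression filter only through the Silica + ATL-III libraries. Mefv, the pyrin sensor, rose by 2.98 ± 0.37, and the inflammatory caspases Casp4 and Casp1 by 1.68 ± 0.16 and 1.23 ± 0.18.

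Of 36 tested chemokine and cytokine genes, 14 rose and 3 fell, with a median of 0.75. With Control 1, Control 3, Silica + ATL-III 2 or Silica + ATL-III 3 left out, 1 fell. Cxcl2, which draws neutrophils, stood at 0.21, 0.33 and 0.18 and at 7.24, 7.22 and 1.70 FPKM (4.59 ± 0.61), with Silica + ATL-III 3 lowest of its group. Osm, oncostatin M, a cytokine of the interleukin 6 family made by neutrophils and macrophages, rose by 3.23 ± 0.45. It passed the expression filter only through the Silica + ATL-III libraries, so its difference was partly selected for. The macrophage chemokines Ccl3 and Ccl9 rose over Control (3.32 ± 0.46 and 2.51 ± 0.25) and were lower than in Silica (-2.22 ± 0.33 and -0.96 ± 0.24). Across the list 2 genes were higher and 19 lower than in Silica. Ccl21a, which guides lymphocytes and dendritic cells into lymphatic vessels, fell (-0.67 ± 0.14).

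In the signalling list of the interleukin 6 family and SOCS genes, 8 of 19 rose and 3 fell, with 2 of the 19 passing the filter only through the Silica + ATL-III libraries. Socs3, an inhibitor induced by STAT3, stood at 8.74, 9.87 and 7.54 and at 41.2, 45.7 and 34.2 FPKM (2.33 ± 0.20, adjusted p = 2.3e-05). Pim1, a kinase gene induced by cytokines, rose by 2.0 ± 0.11 and Stat3 itself by 0.75 ± 0.13, while Socs5 fell (-0.53 ± 0.10). Of 23 complement genes, 10 rose and 1 fell, the latter not without Control 3, Silica + ATL-III 1 or Silica + ATL-III 3. Among the risers C5ar1, the receptor for the fragment C5a on neutrophils, rose by 1.99 ± 0.30, Itgam, the integrin chain of complement receptor 3, by 2.67 ± 0.27, and Cfb, factor B, by 1.57 ± 0.30.

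Genes induced by interferon were mixed across libraries. Of 35 tested, 8 rose and 1 fell, and without Silica + ATL-III 1 the number that fell was 3 and the median turned from 0.53 to -0.10. The mean log2(FPKM + 0.5) of the list was 4.08 in Silica + ATL-III 1, against 2.80 and 3.14 in the other libraries of the group. Oas2, an antiviral synthetase, stood at 3.56, 4.75 and 3.76 and at 17.9, 10.8 and 13.1 FPKM (1.91 ± 0.26), and Gbp4, a guanylate-binding protein, fell (-1.49 ± 0.27). Of 22 MHC class I and peptide loading genes 6 rose and none fell. On the TPM scale 2 rose and 2 fell. H2-D1, a classical class I chain, rose by 0.87 ± 0.18.

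**Figure D3:**
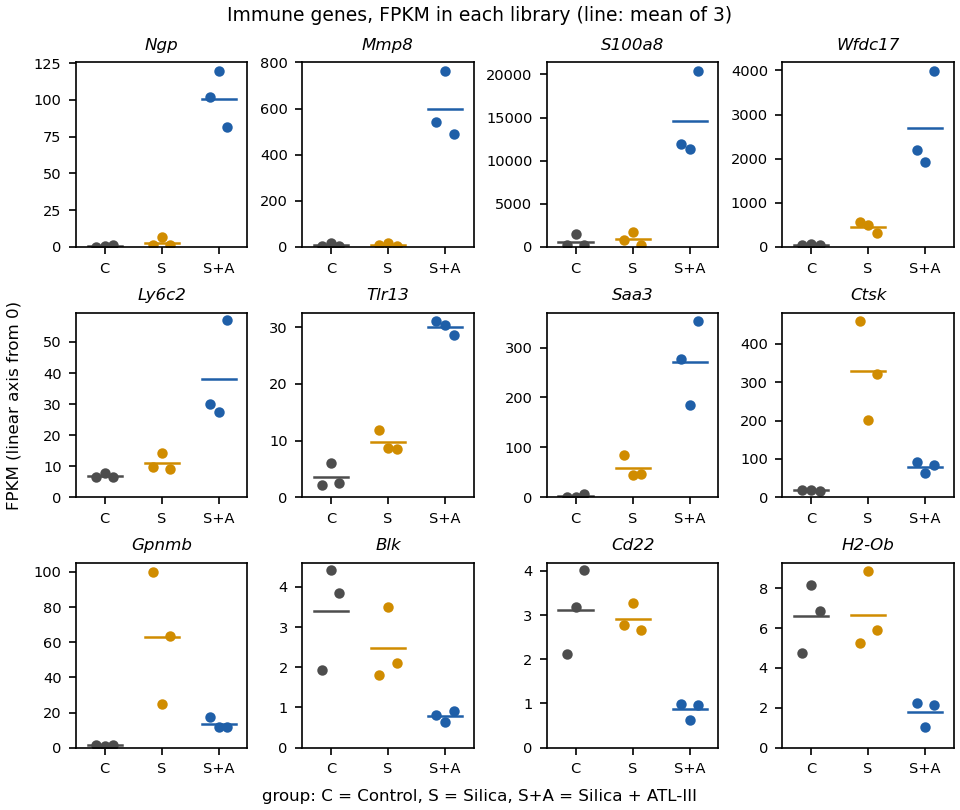
FPKM of 12 immune genes in each library (vertical, linear axis from 0), with 1 point per library and a line at the mean of 3, for Control (C), Silica (S) and Silica + ATL-III (S+A). Ngp, Mmp8, S100a8, Wfdc17, Ly6c2, Tlr13 and Saa3 are highest with ATL-III, Ctsk and Gpnmb are highest in Silica, and Blk, Cd22 and H2-Ob are lowest with ATL-III.

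Most B cell genes fell. Of 18 tested genes that mark B lymphocytes, the antibody lineage, 14 fell and none rose, against 6.71% of all genes tested that fell, and the median was -1.74. The tested genes included 4 that passed the expression filter only through the Control libraries. Cd22, an inhibitory lectin of B cells, stood at 2.13, 3.18 and 4.01 FPKM in Control and at 0.99, 0.63 and 0.97 in Silica + ATL-III (-1.73 ± 0.24, adjusted p = 0.0006). Control 1 was the lowest Control library, and all Silica + ATL-III libraries lay below it. Blk, a kinase of B cell receptor signalling, stood at 1.94, 4.41 and 3.84 and at 0.82, 0.64 and 0.92 FPKM (-1.97 ± 0.34, adjusted p = 0.0021). The adaptor Bank1 (-2.30 ± 0.42) and the transcription factor Ebf1 (-1.19 ± 0.18) fell too. Ebf1 was among the genes that passed the filter only through the Control libraries, so its difference was partly selected for.

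The decrease in B cell genes was also present against Silica, where 16 of 18 were lower (10% of all genes were), while between Silica and Control 1 was higher and 1 lower. Cd22 stood at 2.78, 3.27 and 2.66 FPKM in Silica. Of 13 plasma cell genes 1 rose and none fell. None rose without Control 1, Control 3 or Silica + ATL-III 2, 1 fell without Control 1, and on the TPM scale 0 rose and 4 fell. Of 16 tested T cell genes edgeR called none (median -0.10), DESeq2 called 1 and limma 0, and 2 had an unadjusted edgeR p under 0.05, with 1 called higher without Silica + ATL-III 2. Of 14 genes of natural killer and cytotoxic cells edgeR called none (median -0.21), DESeq2 1 and limma 0, with 4 under 0.05 unadjusted and 4 called higher without Silica + ATL-III 2 and 1 lower without Silica + ATL-III 3. On the TPM scale 0 rose and 3 fell in the T cell list, and the same counts held for the natural killer and cytotoxic list. Of 5 mast cell, basophil and eosinophil genes 1 fell, the mast cell protease gene Cpa3 (log2 fold change -2.15 ± 0.25), which was named after its value was seen. Cd3d, a chain of the T cell receptor complex, stood at 2.35, 3.95 and 2.65 and at 3.72, 2.01 and 3.27 FPKM (adjusted p = 0.79), and it was named after its values were seen. Cd4, the co-receptor of helper T cells, was under the expression filter, at 0.38, 0.31 and 0.87 and at 0.53, 0.52 and 0.38 FPKM.

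MHC class II genes, which present peptides to helper T cells, divided. Of 16 tested, 3 rose and 4 fell. The risers numbered 0 without Control 1 or Silica + ATL-III 1 and 1 without Control 2, and 0 rose and 8 fell on the TPM scale. Those that fell included H2-Ob, a chain of the H2-O heterodimer that B cells express, at 4.76, 8.15 and 6.85 and at 2.25, 1.05 and 2.12 FPKM (-1.74 ± 0.28). They also included Ciita, the master transcription factor of class II genes, at 1.31, 1.42 and 1.83 and at 0.48, 0.66 and 0.65 FPKM (-1.23 ± 0.18, adjusted p = 0.00085). H2-DMb2, a chain of the peptide exchanger, fell as well (-1.34 ± 0.19). Against Silica 10 of the 16 were lower and none higher. Of 17 dendritic cell genes, 1 rose and 4 fell, with 0 rising without Control 1, Control 3 or Silica + ATL-III 1 and 2 without Silica + ATL-III 2. The genes that fell included Cadm1, an adhesion molecule of cross-presenting dendritic cells and of epithelium (-0.92 ± 0.12), Tcf4, a factor of plasmacytoid dendritic cells (-0.70 ± 0.11), and the lectin Mgl2 (-0.78 ± 0.15).

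Epithelial lists held calls in both directions. Of 21 alveolar type 2 genes, 2 rose and 2 fell, a share of 19% called against 15.9% of all genes. Leaving out a library gave 1 to 3 rising and 0 to 3 falling, and the TPM scale gave 2 rising and 9 falling. In Silica 12 of the 21 were higher than in Control, and with ATL-III 12 were lower than in Silica. Sftpd, surfactant protein D, stood at 508, 395 and 449.8 and at 991, 590.1 and 706 FPKM (0.88 ± 0.19) and at 951, 817 and 857 in Silica. Lpcat1, an enzyme that makes surfactant phospholipid, stood at 53.7, 48.9 and 52.7, at 32.9, 34.2 and 32.1 and, in Silica, at 78.1, 61.5 and 79.9 FPKM. It fell against Control (-0.53 ± 0.12, adjusted p = 0.013, not called without Control 1 or Control 3) and against Silica (-1.13 ± 0.12). Of 18 genes of alveolar type 1 cells, the flat cells of gas exchange, 4 fell and none rose. On library totals alone 8 fell and on the TPM scale 13. Limch1, an actin-binding protein (log2 fold change -0.71 ± 0.11), Rtkn2 (-0.68 ± 0.13), and the chloride channel protein Clic5 (-0.64 ± 0.14) fell. The fibroblast list also holds Limch1. Of 13 genes of the transitional state between both cell types 3 rose and none fell (1 fell without Silica + ATL-III 1). The risers were the urokinase receptor Plaur (1.03 ± 0.17), the cell cycle inhibitor Cdkn1a (1.35 ± 0.29) and Lcn2 (3.75 ± 0.29), which the neutrophil list also holds. Of 16 airway secretory genes 2 rose and 1 fell, with none falling without Control 3 and 1 rising and 5 falling on the TPM scale. Of 20 genes of ciliated cells 2 fell and none rose (0 fell without Control 1, Control 3 or Silica + ATL-III 1, and 1 without Control 2 or Silica + ATL-III 3).

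Many genes of the collagen matrix and of the cells that make it fell. Of 21 collagen genes tested, 12 fell and none rose (2 rose without Silica + ATL-III 3), with a median of -0.67 against -0.01 for all genes tested. Of the 21, 2 passed the expression filter only through the Control libraries. Col3a1, a chain of fibrillar collagen III on chromosome 1, stood at 37.5, 31.5 and 35.4 FPKM in Control and at 19.2, 6.96 and 7.35 in Silica + ATL-III (-1.52 ± 0.35, adjusted p = 0.012). Col1a1, a chain of collagen I, stood at 7.95, 5.47 and 5.95 and at 3.86, 2.66 and 2.14 FPKM (-1.04 ± 0.20). Its partner chain Col1a2 stood at 16.6, 15.9 and 14.9 and at 9.88, 6.36 and 4.80 FPKM (-1.05 ± 0.25, adjusted p = 0.015, and 0.057 without Silica + ATL-III 2). For these 3 genes the groups did not overlap, and Silica + ATL-III 1 was the highest library of its group. In Silica, Col3a1 stood at 81.7, 48.0 and 50.0 FPKM, Col1a1 at 5.06, 5.70 and 4.77 and Col1a2 at 31.2, 17.7 and 24.7. Silica + ATL-III was lower than Silica for Col3a1 (-2.41 ± 0.36), Col1a1 (-0.82 ± 0.20) and Col1a2 (-1.80 ± 0.26), and Col1a1 in Silica did not pass the test against Control (-0.22 ± 0.20, adjusted p = 0.45). Over the list, 1 collagen gene was higher and 2 were lower in Silica than in Control (median -0.20), and 8 of 21 were lower and none higher with ATL-III than in Silica.

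Col6a3, a chain of the beaded collagen VI, had the largest called decrease among the collagens, from 8.66, 10.1 and 8.81 to 3.20, 1.75 and 1.64 FPKM (-1.95 ± 0.22, adjusted p = 0.00016). The chains that pair with it, Col6a1 and Col6a2, were named after their values were seen and were not called (log2 fold change -0.11 ± 0.18, adjusted p = 0.72, and -0.29 ± 0.22, adjusted p = 0.41). Col4a5, a basement membrane chain, fell with narrow groups, at 23, 20.7 and 23.3 and at 11.2, 10.8 and 11.0 FPKM (-0.90 ± 0.10). Col12a1 (-1.25 ± 0.17) and Col13a1 (-0.98 ± 0.17) also fell.

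Of 37 other matrix and crosslinking genes, 14 fell and 2 rose, or 9 fell without Control 3 and 4 rose without Silica + ATL-III 3. Lum, a proteoglycan that spaces collagen fibrils, stood at 8.71, 11.7 and 12.1 and at 3.41, 2.64 and 3.02 FPKM (-1.72 ± 0.17, adjusted p = 5.2e-05). Mfap5 (-1.12 ± 0.12) and Fbln5 (-0.86 ± 0.13), proteins of elastic microfibrils and fibres, fell, as did Tnxb, tenascin X (-1.91 ± 0.16). Lox, the lysyl oxidase that crosslinks collagen and elastin, moved the other way, at 39.8, 32.3 and 36.3 and at 104, 96.5 and 62.6 FPKM (1.40 ± 0.20, adjusted p = 0.00077). In Silica, Lox stood at 46.7, 43.0 and 30.5 FPKM. Fn1, fibronectin, stood at 14.9, 16.6 and 17.9 and at 17.9, 14.7 and 15.4 FPKM with overlapping groups (0.07 ± 0.22, adjusted p = 0.86).

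Of 25 fibroblast genes, 16 fell and 1 rose, or 2 rose without Silica + ATL-III 3 (median -0.73). In Silica 8 of the 25 were lower than Control and none higher. With ATL-III 12 were lower and 4 higher than in Silica. Itga8, an integrin chain of alveolar fibroblasts, stood at 29.8, 32.2 and 31.2 and at 11.7, 13.4 and 14.6 FPKM (-1.11 ± 0.13), and Pdgfrb, a receptor for platelet-derived growth factor, fell (-0.94 ± 0.14). The gene that rose was Pi16, a marker of adventitial fibroblasts around vessels and airways, at 3.98, 4.76 and 3.67 and at 5.69, 9.97 and 14.7 FPKM (1.41 ± 0.29), with 1.62, 2.82 and 1.79 in Silica. In the list of smooth muscle cells, pericytes and myofibroblasts, 13 of 21 genes fell and none rose (median -0.55). In Silica 11 of the 21 were lower than Control and none higher. With ATL-III 7 were lower and 3 higher than in Silica. Hhip, an inhibitor of hedgehog ligands in lung myofibroblasts, stood at 7.08, 8.65 and 6.43 and at 2.15, 1.66 and 2.12 FPKM (-1.78 ± 0.14, adjusted p = 1.4e-05). Mylk, myosin light chain kinase (-1.02 ± 0.12), and Aspn, asporin (-1.15 ± 0.15), fell as well. Acta2, smooth muscle actin, stood at 24.3, 21.6 and 21.5 and at 13.3, 17.0 and 12.8 FPKM (-0.53 ± 0.12, adjusted p = 0.012), a call lost without Control 1 or Silica + ATL-III 1 (highest adjusted p 0.062).

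Many markers of neighbouring tissue fell too. Of 22 heart and skeletal muscle genes, 16 fell and none rose, with 3 of the 22 passing the expression filter only through the Control libraries. In Silica 15 of the 22 were lower than Control and none higher. With ATL-III 3 were higher and 2 lower than in Silica. Their summed FPKM ranged from 299.8 to 325 in Control and from 123 to 189 in Silica + ATL-III. Mb, myoglobin, stood at 34.2, 41.7 and 48.1 and at 8.64, 17.0 and 8.03 FPKM (-1.76 ± 0.25) and at 20.9, 21.7 and 16.6 in Silica. The cardiac light chain Myl3, which passed the filter only through the Control libraries, was among the 12 largest decreases (-2.83 ± 0.43). Skeletal actin, Acta1, was detected mainly in Control 3, at 0.12, 0.04 and 10.4 FPKM in the Control libraries and at 0.12, 0.08 and 0.16 with ATL-III. Of 10 adipocyte genes 4 fell and 2 rose, with 2 falling without Silica + ATL-III 1. In Silica 7 of the 10 were lower than Control and none higher. Adipoq, adiponectin, stood at 4.50, 2.80 and 20.8 and at 1.33, 1.38 and 1.45 FPKM (-2.63 ± 0.62, adjusted p = 0.014, lost by a narrow margin without Silica + ATL-III 1), with Control 3 above its group. How far the amount of muscle and fat in the samples bears on the decreases of matrix and contractile genes was not tested. Without Control 3, 9 collagen genes, 13 fibroblast genes and 11 smooth muscle genes were called lower. Of 13 mesothelial genes, of the lining of the chest cavity, 1 rose and 2 fell (0 fell without Control 1, Control 3 or Silica + ATL-III 2, 4 without Silica + ATL-III 1 and 1 without Silica + ATL-III 3, where 2 rose). Of the 13, 2 passed the filter only through Control and 2 only through Silica + ATL-III.

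In the TGF-beta and BMP list, the growth factors that drive and restrain matrix production, 3 of 34 genes rose and 6 fell. Without Control 2 or Control 3, 1 rose, and on library totals alone 1 rose and 12 fell. Tgfb2 stood at 5.39, 4.61 and 4.66 and at 2.14, 2.21 and 2.92 FPKM (-0.89 ± 0.15), and Bmp5 at 11.2, 11.0 and 12.2 and at 5.20, 5.43 and 4.86 (-1.03 ± 0.11, adjusted p = 0.00012). Nrep, the neuronal regeneration-related protein, stood at 16.5, 16.6 and 16.4 and at 6.54, 6.82 and 6.88 FPKM (-1.17 ± 0.09). Ltbp3, which holds latent TGF-beta, fell (-0.69 ± 0.12) and Inhbb, a subunit of activin and inhibin, rose (1.12 ± 0.22). Tgfb1 stood at 3.08, 2.55 and 2.31 and at 3.01, 3.94 and 3.28 FPKM and missed the threshold (adjusted p = 0.053).

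Vascular genes moved in both directions. Of 32 endothelial genes, 2 of which passed the filter only through the Silica + ATL-III libraries, 7 rose and 8 fell, or 4 to 5 fell without Control 2, Control 3 or Silica + ATL-III 1. Selp, P-selectin, which platelets and activated endothelium display to catch leucocytes, stood at 0.34, 0.40 and 0.32 and at 1.54, 2.21 and 1.40 FPKM (2.39 ± 0.24, adjusted p = 7.4e-05). Selp was among the genes that passed the filter only through the Silica + ATL-III libraries, so its difference was partly selected for. Aplnr, the apelin receptor of capillary cells, stood at 3.69, 4.06 and 5.34 and at 1.46, 1.39 and 1.16 FPKM (-1.59 ± 0.18), and its ligand gene Apln fell too (-0.92 ± 0.19). Ednrb, the endothelin B receptor, fell (-0.98 ± 0.19) and the arterial kinase gene Bmx rose (0.88 ± 0.16). Of 15 red blood cell and platelet genes 5 rose and none fell, all 5 of them platelet genes. The risers numbered 2 to 3 without Control 1, Control 2 or Silica + ATL-III 2. Itga2b, the platelet integrin chain, rose by 1.48 ± 0.32, and the receptor Treml1 by 2.09 ± 0.48.

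**Figure D4:**
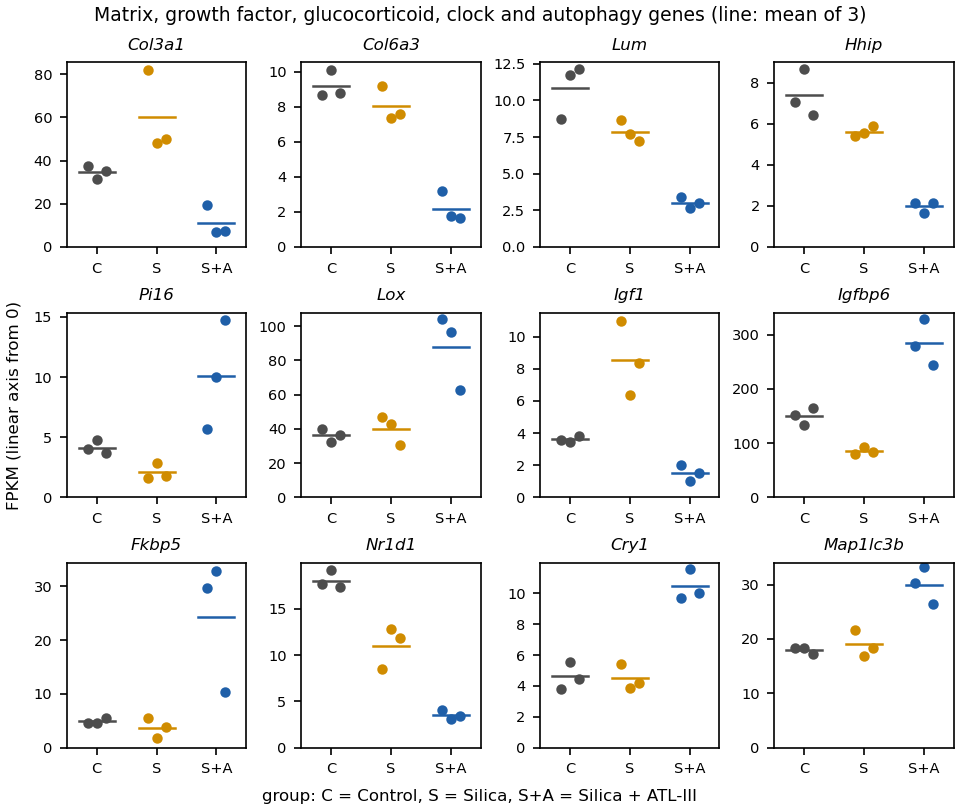
FPKM of 12 genes of matrix, growth factors, glucocorticoid response, the clock and autophagy in each library (vertical, linear axis from 0), with a line at the mean of 3, for Control (C), Silica (S) and Silica + ATL-III (S+A). Col3a1, Col6a3, Lum, Hhip, Igf1 and Nr1d1 are lowest with ATL-III, and Pi16, Lox, Igfbp6, Cry1 and Map1lc3b have higher means there, with Fkbp5 lower in 1 of the 3 Silica + ATL-III libraries than in the others.

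Neither Egfr nor Mtor, which the study's title names, was called. Egfr stood at 2.70, 2.54 and 2.94 FPKM in Control and at 3.23, 3.16 and 1.81 in Silica + ATL-III (log2 fold change 0.12 ± 0.19, adjusted p = 0.72). Mtor stood at 2.58, 2.57 and 2.64 and at 2.70, 2.81 and 2.13 FPKM (0.09 ± 0.13, adjusted p = 0.68). The groups overlapped for both genes. Of 14 tested EGF receptor and ligand genes 1 rose and 1 fell (14.3% called, against 15.9% of all genes). None rose without Control 1, Control 3 or Silica + ATL-III 2, 3 rose without Silica + ATL-III 3, and 0 rose and 3 fell on the TPM scale. These values are of transcripts, and the activity of the receptor, the kinase or autophagy was not measured in them.

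Of 51 autophagy genes, 12 rose and 1 fell under TMM scaling (25.5% called, against 15.9% of all genes). On the TPM scale, however, 2 rose and 11 fell, and the median turned from 0.19 to -0.11. The risers numbered 5 to 6 without Control 1, Control 2, Control 3 or Silica + ATL-III 2, and none fell without Control 1, Control 2, Control 3 or Silica + ATL-III 1. That TPM median lies above the TPM median of all genes. Map1lc3b, which encodes the membrane protein LC3B, stood at 18.3, 18.4 and 17.2 and at 30.2, 33.2 and 26.5 FPKM (0.86 ± 0.13, adjusted p = 0.00089). Its relative Gabarapl1 stood at 69.8, 62.3 and 70.4 and at 114, 133 and 100 FPKM (0.90 ± 0.14, adjusted p = 0.0012). No library overlapped between the groups for either gene, and both were higher than in Silica (0.67 ± 0.13 and 0.69 ± 0.14). The membrane protein Vmp1 (0.66 ± 0.14) and the cargo receptor Tax1bp1 (0.44 ± 0.10) rose.

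Sqstm1, the cargo receptor p62, was called (0.59 ± 0.18, adjusted p = 0.047), and so was the initiating kinase Ulk1 (0.43 ± 0.13, adjusted p = 0.037). Neither call held without Control 1, Control 2, Control 3, Silica + ATL-III 1 or Silica + ATL-III 2 (highest adjusted p 0.15 and 0.12). Becn1, of the complex that nucleates the membrane, stood at 15.2, 15.0 and 14.3 and at 15.9, 16.1 and 14.7 FPKM (adjusted p = 0.21). The conjugation genes Atg5 and Atg7 were not called either (adjusted p = 0.7 and 0.092).

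Of 57 genes of the PI3K-AKT-mTOR pathway, 8 rose and 3 fell (19.3% called, against 15.9% of all genes). On the TPM scale 5 rose and 19 fell. Without Control 3, 4 rose, and without Silica + ATL-III 1, 1 fell. Eif4ebp1, a translation repressor that mTOR switches off, stood at 5.07, 5.11 and 5.70 and at 10.4, 10.5 and 11.3 FPKM (1.14 ± 0.16, adjusted p = 0.00056). Other risers were the leucocyte subunits of PI3 kinase, Pik3cg (1.10 ± 0.15), Pik3r5 (1.31 ± 0.18) and Pik3cd (1.06 ± 0.22), and the regulatory subunit Pik3r3 fell (-0.67 ± 0.13). Of 56 genes of the lysosome, the compartment in which engulfed and autophagic material is broken down, 19 rose and none fell, with 10 to 11 rising without Control 1, Control 2, Control 3 or Silica + ATL-III 1, and 7 rising and 7 falling on the TPM scale. In Silica 38 were higher than in Control, and 26 were lower with ATL-III than in Silica. Atp6v0a1, a subunit of the proton pump and one of the 2 genes of the list higher than in Silica, stood at 12.1, 12 and 9.98, at 21.5, 20.2 and 17.7 and, in Silica, at 9.47, 12.8 and 10.6 FPKM (0.92 ± 0.12 over Control, 0.87 ± 0.12 over Silica).

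Genes that glucocorticoid hormones induce were higher in 2 of the 3 Silica + ATL-III libraries than in the other. Of 25 tested, 15 rose and 1 fell (median 0.88), or 9 rose without Control 3, and none fell without Control 3 or Silica + ATL-III 1. The mean log2(FPKM + 0.5) of the list was 5.86, 5.85 and 4.89 with ATL-III, and 4.47, 4.50 and 4.49 in Control. Fkbp5, a co-chaperone of the glucocorticoid receptor and a standard target of it, stood at 4.55, 4.57 and 5.54 and at 29.6, 32.8 and 10.3 FPKM (2.43 ± 0.42, adjusted p = 0.0024). In Silica, Fkbp5 stood at 5.47, 1.88 and 3.88 FPKM. Sult1a1, a sulfotransferase, rose more evenly, at 88.5, 67.0 and 90.5 and at 117, 134 and 122 FPKM (0.72 ± 0.12). Other listed targets were not called, such as Per1, at 28.8, 32.6 and 29.0 and at 27.1, 31.3 and 20.1 FPKM (adjusted p = 0.75), which was named after its values were seen. The list shares Lcn2, Il1r2, Mt1 and Mt2 with other lists described here. Against Silica 18 of the 25 were higher and none lower. The listed gene that fell against Control was Nr3c1, the gene of the receptor itself (-0.43 ± 0.10, adjusted p = 0.011). That call was lost without Control 3 or Silica + ATL-III 1.

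Of 18 circadian clock genes, 4 rose and 4 fell, or 3 rose and 8 fell on the TPM scale. Nr1d1, a repressor in a feedback loop of the clock, stood at 17.6, 19.1 and 17.4 and at 4.11, 3.11 and 3.40 FPKM (-2.23 ± 0.15, adjusted p = 6.8e-06). Dbp, an output factor of the clock, fell from 13.6, 11.8 and 16.2 to 5.91, 3.79 and 5.16 FPKM (-1.36 ± 0.18). The repressors Cry1 and Nfil3 rose, Cry1 from 3.83, 5.58 and 4.45 to 9.72, 11.6 and 10.1 FPKM (1.30 ± 0.17) and Nfil3 by 2.29 ± 0.30. For Nr1d1, Dbp, Cry1 and Nfil3 the groups did not overlap. The time of day at which lungs were taken is not given in the labels, and its part was not tested.

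Of 24 immediate-early genes, 13 rose and 1 fell (median 0.77). Junb, a subunit of the AP-1 factor, stood at 12.9, 18.8 and 9.84 and at 38.8, 43.8 and 31.7 FPKM (1.58 ± 0.21). Ier2 and Ier3, quickly induced by growth factors and stress, rose by 0.94 ± 0.12 and 1.14 ± 0.14, and the nuclear receptor Nr4a3 fell (-0.75 ± 0.15). Of 29 heat shock and ER chaperone genes, 6 rose and none fell, but 1 to 3 rose without Control 1, Control 2, Control 3, Silica + ATL-III 1 or Silica + ATL-III 2, and the median was 0.03. On the TPM scale 1 rose and 5 fell. Hspb1, a small heat shock protein, stood at 28.4, 27.4 and 30.5 and at 87.9, 99.1 and 34.5 FPKM (1.48 ± 0.32), with Silica + ATL-III 3 close to Control.

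Metabolic lists followed no single direction. Of 24 glycolysis genes, 9 rose and 1 fell. The glucose transporters Slc2a3, which leucocytes express, and Slc2a1 rose by 2.02 ± 0.36 and 1.28 ± 0.15, Hk3, a myeloid hexokinase, by 2.37 ± 0.38 and Gpi1 by 0.81 ± 0.11, while Pfkm, the muscle phosphofructokinase, fell (-0.70 ± 0.14). Of 30 oxidative stress and NRF2 target genes, 12 rose and none fell, 6 to 7 rose without Control 1, Control 2 or Control 3, and 6 rose and 5 fell on the TPM scale. G6pdx, which opens the pentose phosphate pathway and supplies NADPH, stood at 8.11, 8.32 and 7.61 and at 17.5, 19.3 and 17.9 FPKM (1.31 ± 0.11, adjusted p = 2.6e-05). Gsr, glutathione reductase, rose by 1.5 ± 0.18.

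Of 25 iron and heme genes, 9 rose and 1 fell, the latter not without Control 1 or Silica + ATL-III 1, and 7 rose and 6 fell on the TPM scale. Steap4, a metalloreductase, had the smallest p of all genes named here, at 3.55, 3.85 and 4.64 and at 35.5, 48.5 and 36.5 FPKM (3.44 ± 0.17, adjusted p = 2.3e-06), and stood at 14.2, 12.1 and 11.0 in Silica. Slc40a1, the iron exporter ferroportin, rose by 2.17 ± 0.32. Of 33 cholesterol and fatty acid genes, 2 rose and 1 fell. None fell without Control 1, Control 3, Silica + ATL-III 1 or Silica + ATL-III 2, and 2 rose and 13 fell on the TPM scale. In the list 16 genes were higher in Silica than in Control, and 15 were lower with ATL-III than in Silica. The risers were Dgat1 and Dgat2, which complete triglyceride synthesis. Dgat2 stood at 1.56, 1.5 and 2.34 and at 4.76, 5.37 and 4.73 FPKM (1.58 ± 0.19), and Dgat1 rose by 1.55 ± 0.19. Of 48 oxidative phosphorylation genes 1 rose and none fell, with 0 rising without any one of the 6 libraries other than Silica + ATL-III 1, and 0 rose and 9 fell on the TPM scale. Of 57 ribosomal protein genes 4 rose (1 to 2 without Control 1, Control 2, Control 3 or Silica + ATL-III 3) and 1 fell (0 without Control 1, Control 2, Silica + ATL-III 2 or Silica + ATL-III 3), and 0 rose and 7 fell on the TPM scale. Of 29 cell cycle genes 1 fell and none rose. None of the cell cycle genes fell without any one of the 6 libraries other than Silica + ATL-III 3, 1 gene rose without Control 3, and 6 fell on the TPM scale. Of 24 integrin genes 5 rose, among them Itgam and its partner chain Itgb2 in leucocytes (1.40 ± 0.18 for Itgb2), and 2 fell, or 4 rose and 10 fell on the TPM scale.

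Of 33 xenobiotic metabolism genes, 6 rose and 2 fell, with 3 rising without Control 2 or Silica + ATL-III 2, 4 falling without Control 2, and 1 rising and 9 falling on the TPM scale. Cyp1a1, a cytochrome P450 induced through the aryl hydrocarbon receptor, was among the 12 largest decreases, at 16.2, 29.6 and 24.6 and at 4.85, 5.70 and 2.56 FPKM (-2.30 ± 0.30, adjusted p = 0.00036), and stood at 8.87, 7.45 and 12.8 in Silica. The alcohol dehydrogenase Adh1 fell (-0.88 ± 0.11). Por, the electron donor of the cytochrome P450 enzymes, rose by 0.92 ± 0.18, with Silica + ATL-III 3 lowest of its group.

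Other genes were among the 12 largest decreases. Slc7a10, a transporter of small neutral amino acids, stood at 16.4, 19.3 and 17.3 and at 1.95, 1.75 and 2.5 FPKM (-2.97 ± 0.23, adjusted p = 1.5e-05). Fgfr4, a receptor for fibroblast growth factors, stood at 5.67, 7.04 and 7.70 and at 0.66, 0.29 and 1.04 FPKM (-3.24 ± 0.33, adjusted p = 7.4e-05). Scn3a, a voltage-gated sodium channel subunit, stood at 2.68, 2.69 and 2.30 and at 0.37, 0.38 and 0.58 FPKM (-2.41 ± 0.21, adjusted p = 3e-05). In Silica all 3 were lower than Control on average, at 5.39, 10.9 and 6.74 FPKM for Slc7a10, 2.30, 3.69 and 2.76 for Fgfr4 and 1.41, 2.40 and 1.63 for Scn3a. With ATL-III all 3 were lower than in Silica (adjusted p = 0.00039, 0.0013 and 0.00019). Spon2, a secreted protein of the extracellular matrix, fell as well (-2.83 ± 0.55).

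Of 724 genes called against Control in both groups, 41 were counted with opposite signs in Silica and in Silica + ATL-III. The count of 41 leaves out antigen receptor segments, small RNA genes and unnamed models. The comparisons share the Control libraries, and the direct difference of Silica + ATL-III from Silica is given for 6 examples taken from the 10 that the naming rule selected. Igf1, insulin-like growth factor 1, stood at 3.57, 3.46 and 3.81 FPKM in Control, at 11.0, 6.34 and 8.38 in Silica and at 2.0, 1.03 and 1.52 in Silica + ATL-III. It fell against Control with ATL-III (-1.14 ± 0.24, adjusted p = 0.0077), was higher without it (1.35 ± 0.23), and the direct difference was -2.49 ± 0.25 (adjusted p = 0.00012). No library of any group overlapped another group. Igfbp6, which binds insulin-like growth factors, moved the other way, at 152, 133 and 164, at 79.5, 92.2 and 82.9 and at 278, 328 and 245 FPKM (1.04 ± 0.13 over Control, 1.76 ± 0.13 over Silica). The same order held for Ampd3, an AMP deaminase, at 5.31, 6.38 and 5.74, 3.85, 3.88 and 3.22 and 14.5, 13.5 and 11.8 FPKM (1.31 ± 0.12 over Control, 1.88 ± 0.12 over Silica). Il6ra, the interleukin 6 receptor, was lower in Silica (-0.70 ± 0.16) and rose with ATL-III (0.80 ± 0.16, direct difference 1.5 ± 0.16). Xdh, which makes uric acid, was lower in Silica (-0.79 ± 0.17) and rose with ATL-III (0.80 ± 0.17, direct difference 1.59 ± 0.18). The glutathione transferase Gsta3 followed the same pattern (-0.61 ± 0.12 and 0.59 ± 0.12, direct difference 1.19 ± 0.12).

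**Figure D5:**
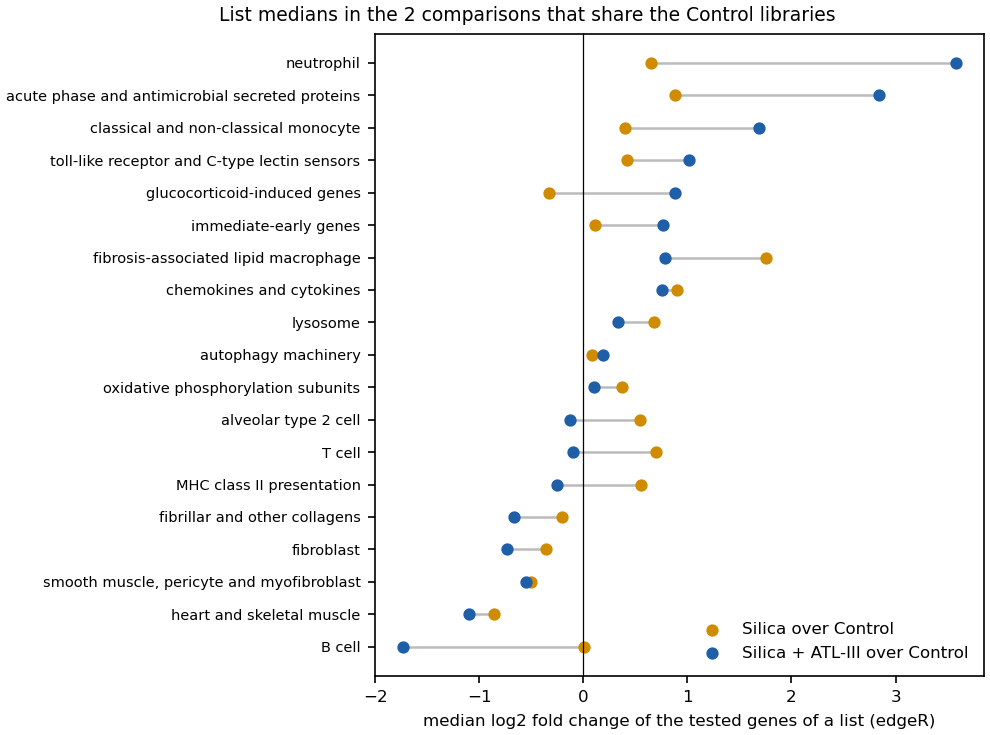
Median log2 fold change (horizontal, edgeR) of the tested genes of 19 lists, for Silica over Control and for Silica + ATL-III over Control, which share the Control libraries. The neutrophil median is 0.65 in Silica and 3.58 with ATL-III, the lipid macrophage median 1.76 and 0.79, the glucocorticoid median -0.33 and 0.88, and the B cell median 0.01 and -1.74.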

How the data were processed

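Poly(A) RNA of mouse lung was sequenced in 9 libraries, 3 each of Control, Silica and Silica + ATL-III. The deposited table holds raw read counts per gene and FPKM values that the authors made from them. Per the submitters' processing notes, cutadapt 1.9.1, HISAT2 2.0.1 and HTSeq 0.6.1 were used with mm10. Recomputed from the counts and the gene lengths in the table, 100.0% of the deposited FPKM values matched within 0.006. No source used here names the annotation release, and only chromosomes are printed for genes. Column letters were matched to samples through the labels, and reads were not marked by strand. Fits used the deposited counts of the 15459 genes that reached an FPKM of 1 in 3 or more libraries. EdgeR 4.0.16 in R 4.3.3 fitted 3 group means to all 9 libraries with TMM factors and a quasi-likelihood F-test (6 residual degrees of freedom), and Benjamini-Hochberg adjustment ran over all genes. Each SE was taken from the fold change and F as |log2 fold change|/√F. On simulated counts at these depths, with 200 of 15459 genes changed, the fit found 23.9% of genes changed 1.5-fold, 68.7% of those changed 2-fold and 97.0% of those changed 4-fold, with 2 false calls among 128. Fewer genes changed there than were called in the data, so these shares may not carry over.

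Alternatives were limma 3.58.1 on the deposited FPKM (log2 of FPKM + 0.5 or + 0.1), DESeq2 1.42.0, other scalings, expression filters and thresholds, the 6 libraries alone, a replicate block and each library left out. The scaling to TPM was chosen after seeing the data. The genes, the 51 lists and their 1305 entries (1302 in the table, 1193 tested) were chosen with earlier results of these data known. Genes were named by a rule. It took the 12 largest called increases and the 12 largest called decreases without overlap and with a mean of at least 2 FPKM in the higher group, leaving out antigen receptor segments and unnamed models. From each list with at least 3 called members it took the 4 with the smallest p in the main direction and 2 in the other. It added genes of the study's subject, up to 10 genes called with opposite signs in the silica groups, and defining markers near 0. Sftpc, Scgb1a1, S100a8, Camp, Cd3d, Cpa3, Col6a1, Col6a2, Per1 and Acta1 were added after their values were seen.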

Additional observations from a re-analysis of the deposited data

How the results depend on the processing

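With edgeR, TMM factors and all libraries, 2451 genes were called in Silica + ATL-III against Control, 1413 higher and 1038 lower. Leaving out 1 library at a time gave 1474 to 2320 calls, 891 to 1425 of them higher and 583 to 895 lower. In those fits the arm with 2 libraries borrows its spread from all groups, and fewer samples enter them. Library totals alone raised the genes called lower to 2043, and limma raised them to 1760 (pseudocount 0.5) and 1729 (pseudocount 0.1). The TPM scale, added after seeing the data, gave 6118 calls, 779 higher and 5339 lower, with 3 of the 2451 calls on the opposite side of 0. An adjusted p under 0.01 left 1211 calls (764 higher, 447 lower), and a log2 fold change of at least 1 left 890 (627 higher, 263 lower). DESeq2 called 2419 of the 2451 genes in the same direction, and upper quartile factors 2281. The replicate numbers did not pair the samples (correlations of deviations -0.06, -0.07 and -0.10 for equal numbers), and a fit with the number as a replicate block called 2109 genes, 1246 higher and 863 lower. At this depth and number of libraries, 1.5-fold changes were often missed in data simulated with 200 changed genes.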
